A study of Saccharomyces cerevisiae with 22 samples.

Results

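The genes described here encode the subunits of the yeast cap-binding complex eIF4F, their cofactor eIF4B, the poly(A)-binding protein and the pair of proteins that bind eIF4E. The 9 genes were taken by systematic name from the 6696 genes that the count files list, by a rule that uses no measured value but was set with earlier results of these data known: *CDC33*, *TIF4631*, *TIF4632*, *TIF1*, *TIF2*, *TIF3*, *PAB1*, *CAF20* and *EAP1*. All 9 had counts in each of the 22 libraries and entered every test. The study asked which mRNAs reach the vacuole by autophagy in *Saccharomyces cerevisiae*, and sequenced RNA from vacuole fractions and total lysates, as well as RNA and ribosome footprints of WT cells. Of the 12 libraries of the first kind, 6 are labelled *rny1*Δ *atg2*Δ (*rny1*Δ::natNT2, *atg2*Δ::kanMX6) and 6 are labelled *rny1*Δ (*rny1*Δ::natNT2). By these labels all of them carry a deletion of *RNY1*, which encodes a vacuolar RNase, and the *rny1*Δ *atg2*Δ cells carry another of *ATG2*, a gene that autophagy requires. *RNY1* still had counts in all of these libraries, given below with the depths, and their source was not tested. Under each of these labels, 2 vacuole and 2 total lysate libraries come from cells kept for 3 h in 0.2 µM rapamycin, and 1 of each from cells growing in YPD, a rich medium with glucose. The 10 WT libraries are 5 of footprints and 5 of RNA. In either assay 2 of them are from growing cells, and rapamycin treatments of 1 h, 2 h and 3 h have 1 library apiece. All labels give the background X2180-1a, whereas the study's strain table lists the *rny1*Δ and *rny1*Δ *atg2*Δ strains under X2180-1B. Rapamycin inhibits the kinase complex TORC1, which holds back autophagy in fed cells.

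In yeast, eIF4F recruits the small ribosomal subunit to capped mRNAs. Cdc33 (eIF4E) holds the cap, Tif4631 and Tif4632 (the paralogs eIF4G1 and eIF4G2) form the scaffold, and Tif1 and Tif2 (identical copies of eIF4A) are RNA helicases whose activity Tif3 (eIF4B) stimulates. Pab1 covers the poly(A) tail and contacts eIF4G. Caf20 and Eap1 bind eIF4E at the surface that eIF4G uses and can keep eIF4G from it.

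In assembly R64, the sacCer3 build, *CDC33* (YOL139C) lies at chrXV:60383-61024, *TIF4631* (YGR162W) at chrVII:824059-826917, *TIF4632* (YGL049C) at chrVII:406860-409604, *TIF1* (YKR059W) at chrXI:554987-556174 and *TIF2* (YJL138C) at chrX:153504-154691. *TIF3* (YPR163C) lies at chrXVI:868645-869955, *PAB1* (YER165W) at chrV:510373-512106, *CAF20* (YOR276W) at chrXV:841333-841818 and *EAP1* (YKL204W) at chrXI:53704-55602. These are coding regions, and they range in length from 486 bases in *CAF20* and 642 in *CDC33*, by way of 1188 in each eIF4A gene, 1311 in *TIF3*, 1734 in *PAB1* and 1899 in *EAP1*, to 2745 in *TIF4632* and 2859 in *TIF4631*. *TIF1* and *TIF2* are nearly the same in sequence, and the counts of a single copy are uncertain. In the WT files their counts differed by at most 0.343% in RNA and 1.56% in footprints, too little for reads to be assigned to a copy. In the total lysate and vacuole files, where reads aligned at several places were left out of the gene counts, *TIF1* had from 0.414 to 1.25 times the counts of *TIF2*. *CAF20* is overlapped on the other strand by the dubious reading frame YOR277C, which had from 62.5% to 93.1% of the *CAF20* counts in the total lysate and vacuole libraries, from 38.2% to 41.7% in WT RNA and 0 counts in footprints. How strand entered the counting is not given in the sources used here, so that RNA counts of this pair may not be told apart.

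Between 9156333 and 22097523 counts lay on genes in 11 of the 12 total lysate and vacuole libraries. Vacuole replicate 2 of rapamycin-treated *rny1*Δ *atg2*Δ had 535462, and in this library 3 counts, the limit that a count of 0 allows, stand for 5.60 CPM of the plain total, against at most 0.328 CPM in the others. Elsewhere CPM is the count relative to the library's total after TMM scaling. WT libraries held from 2657480 to 20413301 counts in footprints and from 10361721 to 14917164 in RNA. *ATG2* had from 0 to 79 counts in libraries labelled *rny1*Δ *atg2*Δ and from 851 to 1448 in those labelled *rny1*Δ. *RNY1* had counts in all 12 libraries, from 9 to 439 under the first label and from 247 to 418 under the second, so that the strains are called here by their labels. WT RNA had 66 and 86 *RNY1* counts in growing cells and 1068, 1119 and 834 at 1 h, 2 h and 3 h of rapamycin. Counts under the *rny1*Δ label thus lay above those of growing WT cells and below those of treated ones, and the reason was not tested. A ratio therefore compares the makeup of libraries, not amounts of mRNA per cell, and less RNA per cell cannot be told apart from other shifts of the whole. A gene is said to have passed where the quasi-likelihood test of edgeR, with Benjamini-Hochberg adjustment over all genes of its fit, gave an adjusted p below 0.01. The fits held 5753 genes in total lysates and vacuoles, 5625 in WT footprints, 5927 in WT RNA and 5936 in both WT assays together. By the study's methods replicates are independent biological samples, whereas each group with 1 library takes its spread from the other groups. The SE of a fitted log2 change is its size over the square root of the F statistic of the edgeR test. It is not a spread of replicates.

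Growing cells had much more mRNA of most of these genes than of *TIF4632* and *EAP1*. Levels are compared between genes as TPM, which divides by coding length. In growing WT cells, *TIF2* had 1478 ± 141 TPM and *TIF1* 1473 ± 140 TPM in RNA (SD, n = 2 each), counts that are uncertain for a single copy, and stood above 97.4% of protein-coding genes. *CDC33* followed with 669 ± 38.2 TPM and *PAB1* with 603 ± 52.0 TPM, a difference within their spread. *CAF20* had 493 ± 36.3 TPM, *TIF3* 376 ± 28.6 TPM and *TIF4631* 96.2 ± 8.19 TPM, and each of these lay apart from its neighbours in both libraries. At the low end, *EAP1* had 17.7 ± 2.26 TPM and *TIF4632* 17.0 ± 2.1 TPM, near the middle of all protein-coding genes and with overlapping libraries. The mRNA of the first eIF4G paralog was thus 5.82 and 5.51 times that of the second in the growing libraries, and the mRNA of *CAF20* was 32.1 and 24.2 times that of *EAP1*.

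Mean footprint levels of growing WT cells gave the same order from high to low except within the *TIF1* and *TIF2* pair, with *TIF1* and *TIF2* at 2154 ± 493 and 2153 ± 491 TPM and *EAP1* and *TIF4632* at 34.2 ± 12.5 and 32.3 ± 0.630 TPM (SD, n = 2 each). In single libraries the order turned for *EAP1* and *TIF4632* (25.4 and 31.8 TPM in replicate 1) and for *CDC33* and *PAB1* (555 and 558 TPM in replicate 2). *CAF20*, at 307 ± 8.61 TPM, and *TIF3*, at 279 ± 23.8 TPM, had 301 and 296 TPM in their nearest libraries. In growing total lysates, the TPM order was led by *PAB1*, with 950.5 TPM in *rny1*Δ *atg2*Δ and 952 TPM in *rny1*Δ, and by *TIF3*, with 709.8 TPM in *rny1*Δ *atg2*Δ and 719.5 TPM in *rny1*Δ. *CDC33* had 619.7 TPM in *rny1*Δ *atg2*Δ and 575 TPM in *rny1*Δ, and *CAF20* had 514 TPM and 512 TPM. The eIF4A genes stood lower there than in WT, with 333 TPM for *TIF1* and 357 TPM for *TIF2* in *rny1*Δ *atg2*Δ and with 296 and 317 TPM in *rny1*Δ. Reads on sequence shared by the copies are missing from those files, so that these levels were set differently from the WT ones and were not compared by a test.

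**Figure D1:**
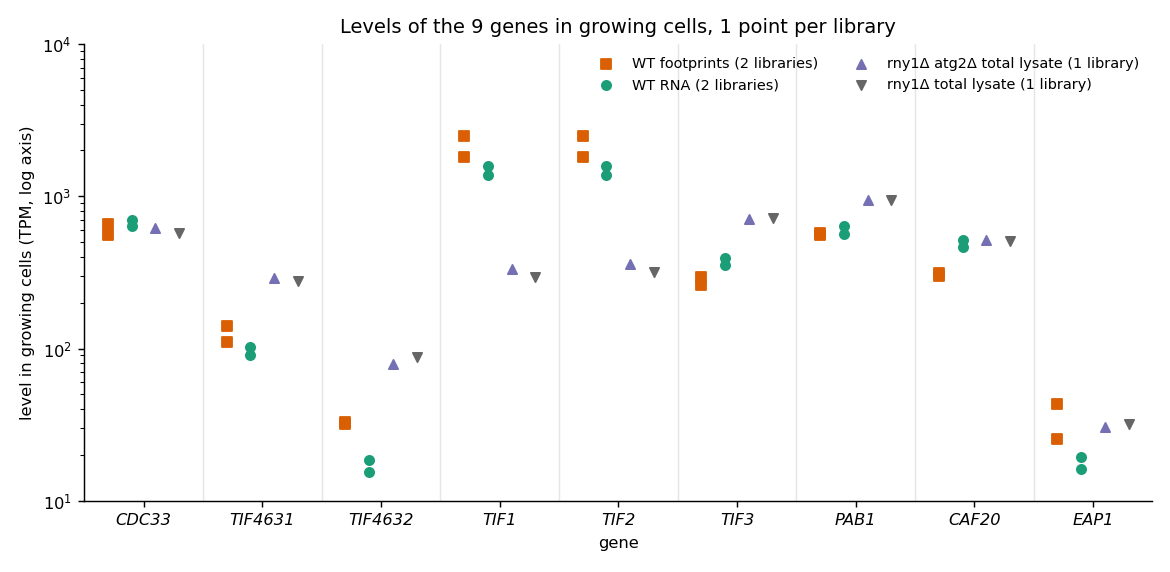
Levels of the 9 genes in growing cells in TPM (y axis, log scale), with squares for WT footprints, circles for WT RNA and triangles for total lysates of *rny1*Δ *atg2*Δ and *rny1*Δ, 1 point per library. In all 4 kinds of library *EAP1* and *TIF4632* hold the lowest levels, from 15.5 to 88.3 TPM.

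In WT RNA, 7 of the 9 mRNAs fell within 1 h of rapamycin and stayed low at 2 h and 3 h, where 29.0%, 26.9% and 29.2% of all tested genes passed downward. The 7 are *CDC33*, *TIF4631*, *TIF1*, *TIF2*, *TIF3*, *PAB1* and *CAF20*, with falls from 2.06-fold to 6.21-fold. Counts of *TIF1* and *TIF2* were nearly equal in WT RNA and footprints. Tallies and medians of members in WT take them as 2 genes, though they are not separate measurements there. The mRNAs of *TIF4632* and *EAP1* moved little, and neither passed upward at 1 h or 2 h, where 28.2% and 26.2% of all genes did. The median log2 change of the 9 was −1.88, −1.64 and −1.71 at 1 h, 2 h and 3 h, beside 0.01, 0.02 and −0.01 over all genes. These tests rest on 2 growing libraries and 1 library at each time. In a fit of all 10 WT libraries, which takes 1 spread for RNA and footprints, 2 members passed downward at 1 h and 0 at 2 h and 3 h.

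*TIF3* changed most at 1 h. Its mRNA had 709 and 709 CPM in growing cells and 114, 164 and 183 CPM at 1 h, 2 h and 3 h, log2 changes of −2.63 ± 0.14, −2.11 ± 0.13 and −1.95 ± 0.13 (SE). The scaffold mRNA *TIF4631* had 398 and 403 CPM in growing cells, then 72.7, 98.9 and 124 CPM, log2 changes of −2.46 ± 0.13, −2.02 ± 0.12 and −1.70 ± 0.12. Both mRNAs were lowest at 1 h and partly regained their level by 3 h, and *PAB1* had the same shape, with 1503 and 1524 CPM in growing cells and 549, 715 and 736 CPM afterwards. The fall of *PAB1*, by 2.06-fold at 3 h, was the smallest among the 7. *CDC33* had 663 and 549 CPM in growing cells and 181, 211 and 185 CPM later, and *CAF20* had 368 and 298 CPM and then 90.3, 106 and 97.5 CPM. The mRNAs of the cap-binding protein and of its inhibitor thus fell by 3.27-fold and 3.41-fold at 3 h. *TIF1* and *TIF2*, with nearly equal counts in these files, changed by log2 −2.17 and −2.18 at 1 h and −2.02 each at 3 h (SE 0.14).

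The second eIF4G mRNA, *TIF4632*, had 65.6 and 70.2 CPM in growing cells and 61.6, 74.0 and 70.9 CPM at 1 h, 2 h and 3 h, log2 changes of −0.14, 0.12 and 0.06 with SEs of 0.12, 0.11 and 0.11. The times fell on both sides of the growing libraries. *EAP1* had 46.9 and 50.5 CPM in growing cells and 60.3, 61.5 and 63.9 CPM later. It was higher at each time than in either growing library, by log2 0.31, 0.34 and 0.39 (SE 0.12 each), and passed only at 3 h (edgeR adjusted p = 0.0085), where 26% of all genes passed upward. DESeq2 did not call this rise.

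**Figure D2:**
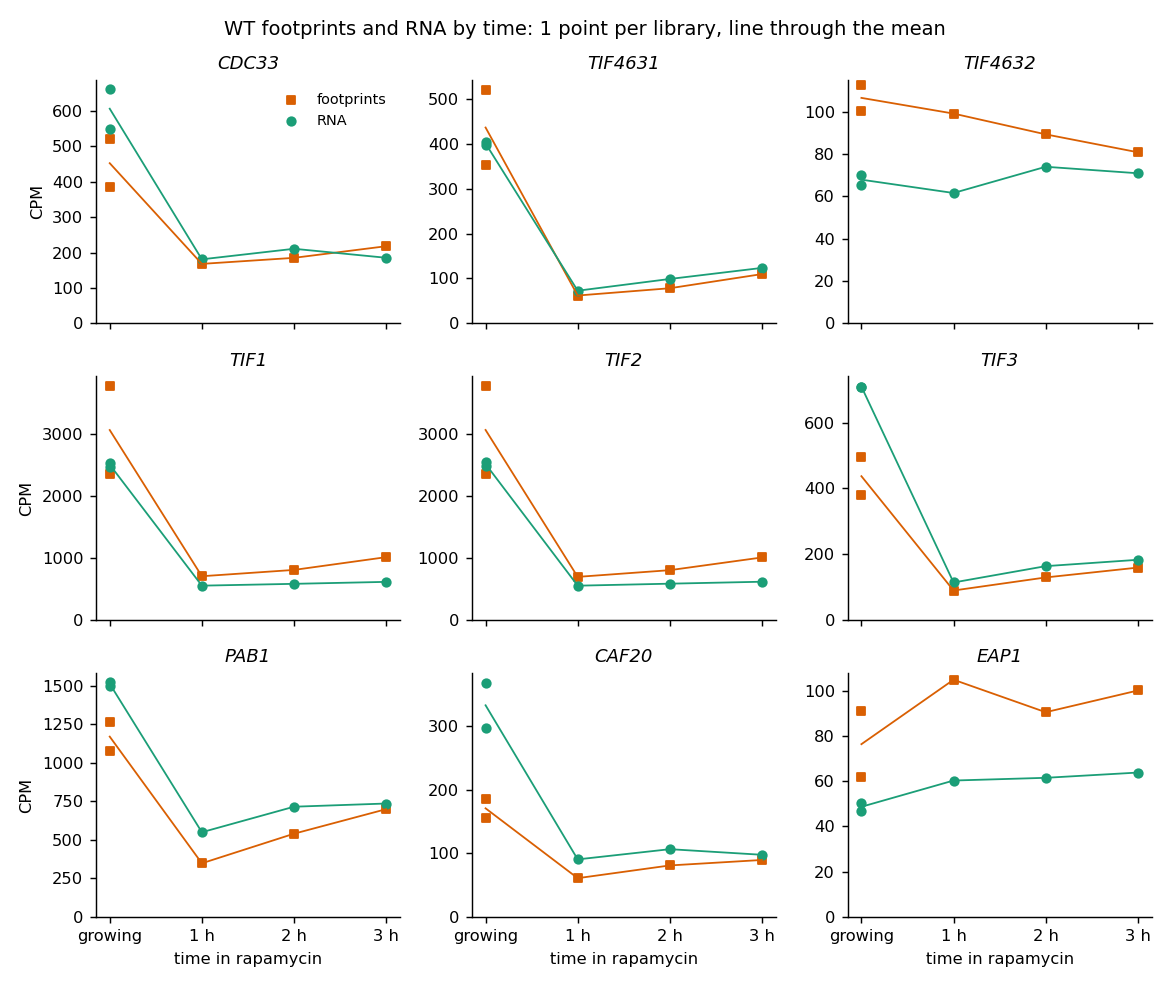
Footprints (squares) and RNA (circles) of WT cells in CPM (y axes, from 0) against time in rapamycin, 1 point per library with a line through the mean, for each of the 9 genes. RNA of 7 genes lies lower at 1 h, 2 h and 3 h than in growing cells, while *TIF4632* RNA stays between 61.6 and 74.0 CPM and *EAP1* RNA between 46.9 and 63.9 CPM.

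In total lysates of both mutant strains, the same 7 mRNAs fell after 3 h of rapamycin and *EAP1* rose. Of all genes tested, 36.7% passed downward and 35.1% upward in *rny1*Δ *atg2*Δ, and 36.2% and 33.2% in *rny1*Δ, so that a change was common among yeast mRNAs. Median log2 changes of the 9 were −2.07 in *rny1*Δ *atg2*Δ and −1.74 in *rny1*Δ, beside −0.02 and −0.05 over all genes. *TIF3* fell most, to 87.7 and 112 CPM in rapamycin-treated *rny1*Δ *atg2*Δ against 883 CPM in growing cells, and to 138 and 109 CPM in rapamycin-treated *rny1*Δ against 879 CPM in growing cells. These are falls by 8.86-fold and 7.12-fold. *TIF4631* had 148 and 153 CPM after rapamycin against 785 CPM in growing *rny1*Δ *atg2*Δ, and 182 and 168 CPM after rapamycin against 738 CPM in growing *rny1*Δ. Its log2 changes were −2.38 ± 0.12 and −2.08 ± 0.12 in the 2 strains.

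*CAF20* had 49.4 and 47.8 CPM after rapamycin against 237 CPM in growing *rny1*Δ *atg2*Δ, and 49.9 and 44.3 CPM after rapamycin against 232 CPM in growing *rny1*Δ. It fell by 4.87-fold and 4.92-fold, nearly the same in both strains. *CDC33* changed by log2 −2.07 ± 0.12 in *rny1*Δ *atg2*Δ and −1.74 ± 0.12 in *rny1*Δ, and *PAB1* by −1.12 ± 0.12 and −0.94 ± 0.12. The sum of both eIF4A genes changed by −2.02 and −1.83 in these strains, with *TIF1* alone at −2.64 and −2.31 and *TIF2* alone at −1.62 and −1.49. So the eIF4A mRNAs fell by any of these counts. *EAP1* had 95.7 and 85.0 CPM after rapamycin against 54.6 CPM in growing *rny1*Δ *atg2*Δ, a rise of log2 0.73 ± 0.13, and 123 and 143 CPM after rapamycin against 56.2 CPM in growing *rny1*Δ, a rise of 1.24 ± 0.14. *TIF4632* changed by 0.12 ± 0.11 and −0.16 ± 0.11 and passed in neither strain (edgeR adjusted p = 0.34 and 0.20).

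The change after rapamycin was also compared between strains, *rny1*Δ *atg2*Δ minus *rny1*Δ. No member passed (0 by edgeR and 0 by DESeq2), where 0.0174% of all genes passed upward and 0.0521% downward. At an unadjusted p under 0.05 there was 1 member by each, beside 709 of all 5753 genes by edgeR. The differences ran from −0.51 ± 0.18 for *EAP1*, the member with the small unadjusted p, to 0.28 ± 0.16 for *TIF4632*.

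**Figure D3:**
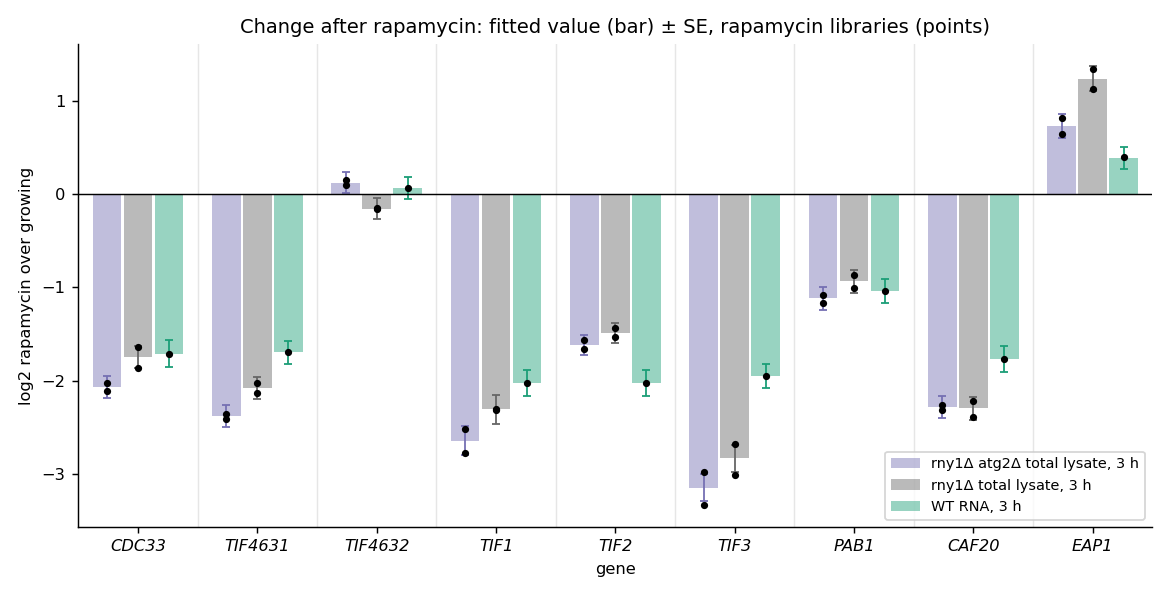
Log2 change after 3 h of rapamycin for the 9 genes, as fitted values (bars, with SE) for total lysates of *rny1*Δ *atg2*Δ, for total lysates of *rny1*Δ and for WT RNA, with each rapamycin library as a black point relative to growing cells. Of the genes, 7 have bars below 0 in all 3, from −0.94 for *PAB1* in *rny1*Δ to −3.15 for *TIF3* in *rny1*Δ *atg2*Δ, and *EAP1* has bars above 0.

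The mRNA ratios between the eIF4G paralogs and between the eIF4E-binding proteins shifted with these changes, and the ratios were not tested. The TPM of *TIF4631* was 1.13, 1.28 and 1.67 times that of *TIF4632* in WT RNA at 1 h, 2 h and 3 h, below the growing ratios given above. In total lysates, the ratio was 0.648 and 0.646 after rapamycin against 3.66 in growing *rny1*Δ *atg2*Δ, and 0.868 and 0.793 after rapamycin against 3.14 in growing *rny1*Δ. The mRNA of the second scaffold gene was thus the more abundant of the pair in all 4 rapamycin-treated total lysates and in no growing library. The TPM ratio of *CAF20* to *EAP1* was 6.14, 7.09 and 6.26 in WT at 1 h, 2 h and 3 h. It was 2.02 and 2.20 after rapamycin against 17.0 in growing *rny1*Δ *atg2*Δ, and 1.59 and 1.22 after rapamycin against 16.1 in growing *rny1*Δ.

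In the vacuole fraction of rapamycin-treated *rny1*Δ cells, the short mRNAs *CAF20* and *CDC33* were over-represented relative to the total lysate, and *TIF4632* and *EAP1* were under-represented. Of the 9, 3 passed upward and 4 downward, where 28.6% and 27.3% of all genes did. *CAF20* had 124 and 119 CPM in the vacuole against 49.9 and 44.3 CPM in the total lysate, a log2 difference of 1.36 ± 0.11, and exceeded 94.2% and 94.7% of genes in its vacuole/total ratio. *CDC33* had 221 and 206 CPM in the vacuole against 110.2 and 94.7 CPM in the total lysate, a difference of 1.06 ± 0.10. For both genes the vacuole libraries lay above the total libraries with no overlap. *TIF4632* had 89.6 and 88.1 CPM in the vacuole against 201 and 203 CPM in the total lysate, −1.19 ± 0.09, and *EAP1* had 70.2 and 75.4 CPM against 123 and 143 CPM, −0.86 ± 0.11.

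Of the others, *TIF4631* had a vacuole/total difference of −0.51 ± 0.10 and also passed, so that both scaffold mRNAs were lower in the vacuole. *PAB1*, at 0.06 ± 0.10, had nearly equal CPM in the fractions. *TIF3*, at 0.28 ± 0.13, did not pass, but passed at 0.29 with a replicate block. *TIF1* passed upward at 0.60 ± 0.14 and *TIF2* downward at −0.55 ± 0.10, while their sum stood at −0.040. DESeq2 did not call *TIF1*, nor did edgeR without vacuole replicate 1 (0.44), and no direction is read for eIF4A.

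In rapamycin-treated *rny1*Δ *atg2*Δ cells, *CAF20* was under-represented and *TIF4631* over-represented in the vacuole. The study reports that its gels showed hardly any mRNA in vacuoles of *atg2*Δ cells. The ratios of this strain thus compare the makeup of libraries, not amounts delivered. Vacuole/total ratios of *CAF20*, *CDC33*, *TIF4631* and *EAP1* lay on the other side of 0 than in *rny1*Δ in both pairs of libraries, a contrast of strains tested on enrichment. Of the 9, 1 passed upward and 1 downward, where 11.9% and 10% of all genes did. *CAF20* had 25.8 and 34.3 CPM in the vacuole against 49.4 and 47.8 CPM in the total lysate, −0.87 ± 0.13. The second vacuole value rests on 16 counts, with an exact Poisson 95% interval from 19.6 to 55.7 CPM that covers counting error only. *TIF4631* had 247 and 214 CPM in the vacuole against 148 and 153 CPM in the total lysate, 0.66 ± 0.11. Without the deep vacuole library (replicate 1), neither passed (−0.50 and 0.51). *CDC33* (−0.39) passed as well when either total library of *rny1*Δ was left out. With a replicate block, *CDC33* (−0.36) and *TIF2* (−0.32) were called too, so that 3 passed downward. With coding length taken into account, *TIF4632* passed beside *CAF20*, which made 2.

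Growing cells had their own differences between fractions. In growing *rny1*Δ *atg2*Δ the log2 vacuole/total ratio ran from −0.36 for *TIF3* to 0.32 for *PAB1*, and in growing *rny1*Δ from −0.39 for *TIF4632* to 0.41 for *EAP1*, with a single pair of libraries each. Vacuolar enrichment takes this into account. It is the log2 vacuole/total ratio after rapamycin minus that of growing cells.

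Vacuolar enrichment in *rny1*Δ passed upward for 2 members and downward for 3, where 19.3% and 16.3% of all genes passed. *CAF20* was enriched 3.01-fold (log2 1.59 ± 0.17) and *CDC33* 1.92-fold (0.94 ± 0.17). *EAP1* was depleted 2.41-fold (−1.27 ± 0.18), *TIF4632* 1.73-fold (−0.79 ± 0.16) and *TIF4631* 1.53-fold (−0.61 ± 0.17, edgeR adjusted p = 0.0068). The mRNAs of the eIF4E-binding proteins thus stood at the opposite ends of the 9. The study's classes of enriched and depleted mRNAs also require a 2-fold change, which only *CAF20* and *EAP1* reached in this fit. *TIF3* (0.62), *TIF1* (0.53), *PAB1* (−0.30) and *TIF2* (−0.45) did not pass, of which the replicate block called *TIF3* (0.63) and *TIF1* (0.53) upward, making 4, and *TIF2* downward. *TIF3* also passed without total replicate 1 of *rny1*Δ (0.80). *TIF4631* did not pass without total replicate 1 of *rny1*Δ (−0.55) or without total replicate 2 of *rny1*Δ *atg2*Δ (−0.61), nor in a fit of *rny1*Δ alone (−0.63).

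Coding length moved with these values: the members with the highest enrichment in *rny1*Δ, *CAF20* and *CDC33*, are also the shortest, and *EAP1* and the eIF4G genes, which were depleted, are the longest. With a correction for coding length in the fit, the enrichment was 0.90 for *CAF20*, 0.36 for *CDC33*, −0.22 for *TIF4631*, −0.41 for *TIF4632* and −1.11 for *EAP1*. Only *CAF20* of the 2 enriched members still passed, and of the 3 depleted ones *EAP1* did, joined by *TIF2*.

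In *rny1*Δ *atg2*Δ no member passed in either direction (0 by edgeR and 0 by DESeq2), where 4% and 2.62% of all genes passed upward and downward. At an unadjusted p under 0.05 there were 4 members by edgeR, beside 1651 of all 5753 genes, and 3 by DESeq2. Values ran from −0.68 ± 0.19 for *CAF20* to 0.59 ± 0.17 for *TIF4631*. The replicate block called *TIF3* (0.66) and *TIF4631* (0.60) upward and *CAF20* (−0.69) downward, a fit of this strain alone called *CAF20* (−0.72), and so did fits without either total library of *rny1*Δ (−0.69 each).

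The difference of enrichment between strains, *rny1*Δ *atg2*Δ minus *rny1*Δ, passed downward for 2 members and upward for 3, where 9.63% and 8.97% of all genes passed. It was −2.27 ± 0.26 for *CAF20* and −1.38 ± 0.25 for *CDC33*, which were less enriched in *rny1*Δ *atg2*Δ. It was 1.21 ± 0.24 for *TIF4631*, 1.18 ± 0.26 for *EAP1* and 0.88 ± 0.23 for *TIF4632*. These 3 were depleted in *rny1*Δ, and none of them passed as enriched in *rny1*Δ *atg2*Δ. The mRNAs that passed are the same 5 whose enrichment passed in *rny1*Δ. The difference contains that enrichment with its sign turned, so this match is no separate result. *PAB1*, at 0.09 ± 0.26, and *TIF3*, at −0.06 ± 0.31, showed little difference. With the length correction, the difference was −1.52 for *CAF20*, which passed, and −0.67 for *CDC33*, 0.72 for *TIF4631*, 0.97 for *EAP1* and 0.41 for *TIF4632*, which did not. All 5 passed without the shallow vacuole library of *rny1*Δ *atg2*Δ. Without the deep one, only *CAF20* did (−1.90), with *CDC33* at −1.22, *TIF4631* at 1.06, *EAP1* at 1.09 and *TIF4632* at 0.78. *TIF4632* also failed without either vacuole library of *rny1*Δ (0.99 and 0.96) or either total library of *rny1*Δ *atg2*Δ (0.87 and 0.90).

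**Figure D4:**
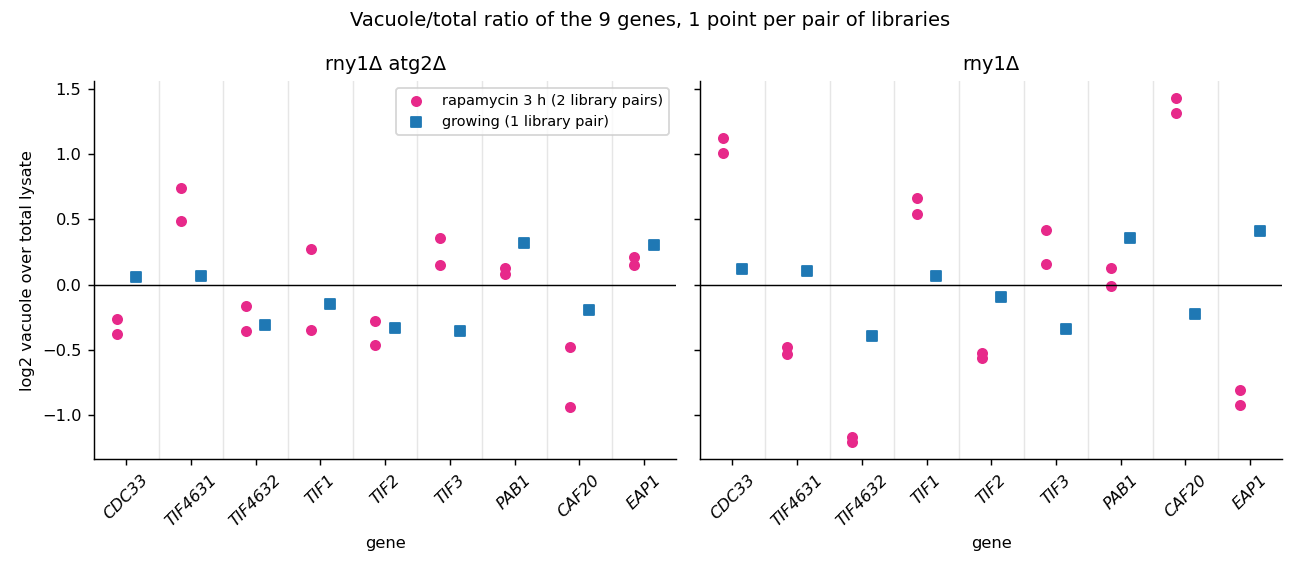
Log2 vacuole/total ratio of the 9 genes in *rny1*Δ *atg2*Δ (left panel) and *rny1*Δ (right panel), with circles for the 2 pairs of rapamycin libraries and squares for the pair of growing libraries. In *rny1*Δ the rapamycin points of *CDC33* and *CAF20* lie at 1.01 and higher and those of *TIF4632* at −1.17 and lower, while in *rny1*Δ *atg2*Δ all points lie between −0.94 and 0.74.

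Compared directly after rapamycin, the strains differed in the vacuole and little in the total lysate. In vacuoles, *rny1*Δ *atg2*Δ minus *rny1*Δ passed downward for *CAF20* (−2.20 ± 0.13), *CDC33* (−1.64 ± 0.12) and *TIF1* (−1.07 ± 0.16), where 29.2% of all genes did, and upward for *TIF4632* (1.10 ± 0.10), *TIF4631* (0.95 ± 0.11) and *EAP1* (0.52 ± 0.12), where 29.9% did. *TIF1* and *EAP1* did not pass without the deep vacuole library (−0.34 and 0.44), and *TIF1* failed by DESeq2 (−0.79) and as a sum with *TIF2* (−0.26). *TIF2* itself, at 0.27, passed at 0.30 with the block. In total lysates only *EAP1* passed, with 95.7 and 85.0 CPM in *rny1*Δ *atg2*Δ against 123 and 143 CPM in *rny1*Δ (−0.55 ± 0.10), where 1.22% of all genes passed downward and 2.76% upward. The libraries of the strains did not overlap, but the call was lost without total replicate 2 of *rny1*Δ (−0.44) and without total replicate 1 (−0.67) or 2 (−0.47) of *rny1*Δ *atg2*Δ. *TIF3*, at −0.31, passed with the block, which made 2.

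Footprints of WT cells fell with the RNA in the measured values, but no member passed the test at any time (0 by edgeR at 1 h, 2 h and 3 h). At an unadjusted p under 0.05 there were 7, 6 and 2 members, all downward, beside 1441, 937 and 959 of all 5625 genes. DESeq2 called 4, 1 and 0 members, all downward, and nothing is read from these counts. Over all genes, 5.92% passed downward and 0.16% upward at 1 h and none later. The growing footprint libraries differed from each other far more than those of RNA, with an SD of the log2 difference of 0.688 across genes in footprints and 0.187 in RNA. *TIF4631* had 519.7 and 353 CPM of footprints in growing cells and 62.0, 78.2 and 109.7 CPM at 1 h, 2 h and 3 h, log2 changes of −2.81 ± 0.58, −2.48 ± 0.57 and −1.99 ± 0.55. Each time lay far below both growing libraries. *TIF1*, with 3774 and 2365 CPM in growing cells and 708, 810.2 and 1016 CPM later, and *TIF3*, with 494 and 380.2 CPM and then 89.8, 129.5 and 159 CPM, had the same shape.

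*CDC33* had 520.5 and 384 CPM of footprints in growing cells and 168, 185 and 218 CPM at the 3 times, *PAB1* had 1266 and 1075 CPM and then 348, 539.8 and 699 CPM, and *CAF20* had 186 and 155 CPM and then 60.8, 80.8 and 89.4 CPM. All 7 genes whose RNA fell thus had fewer footprints at each time than in either growing library. *EAP1* had 61.8 and 91.0 CPM in growing cells and 105, 90.6 and 100.2 CPM later. It lay above both growing libraries at 1 h and 3 h and between them at 2 h. *TIF4632* had 113 and 100.5 CPM in growing cells and 99.1, 89.3 and 80.8 CPM later, log2 changes of −0.10, −0.25 and −0.40 with SEs of 0.43 to 0.44.

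Ribosome association, the change of footprints minus that of RNA, passed for no member at any time (0 by edgeR and DESeq2, and 0 at an unadjusted p under 0.05), where 0.00% of all genes passed in either direction. At 3 h the values were 0.73 ± 0.37 for *CAF20*, 0.55 ± 0.43 for *CDC33*, 0.39 ± 0.38 for *TIF3*, 0.32 ± 0.53 for *TIF1*, 0.19 ± 0.39 for *PAB1*, −0.10 ± 0.41 for *EAP1*, −0.40 ± 0.44 for *TIF4631* and −0.57 ± 0.32 for *TIF4632*. Their SEs, as large as 0.53, limit what could be detected. Relative to the median of 5042 genes, *CAF20* had a log2 ratio of footprints to RNA of −0.93 and −0.91 in growing cells and −0.58, −0.39 and −0.21 at 1 h, 2 h and 3 h. Its ratio was higher at each time than in either growing library, and the order followed time. The overlapping frame YOR277C had counts in WT RNA but none in footprints, so the size of the *CAF20* ratio is uncertain.

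*TIF4632* had a ratio of 0.84 and 0.55 in growing cells and 0.68, 0.28 and 0.10 at 1 h, 2 h and 3 h, lower than both growing libraries at 2 h and 3 h. *CDC33* had −0.29 and −0.48 in growing cells and −0.12, −0.18 and 0.15 later. *TIF1* had 0.66 and −0.07 in growing cells, and its later values lay between them. *TIF4631* had 0.44 and −0.16 in growing cells and −0.24, −0.33 and −0.26 at 1 h, 2 h and 3 h, lower at each time than in either growing library. When a growing footprint library is left out, each footprint condition has 1 library, and the spread comes from the growing RNA pair alone, which was the less variable one. At 3 h such fits called 5 members upward and 0 downward without replicate 1, and 1 upward and 2 downward without replicate 2, and nothing is read from these calls.

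**Figure D5:**
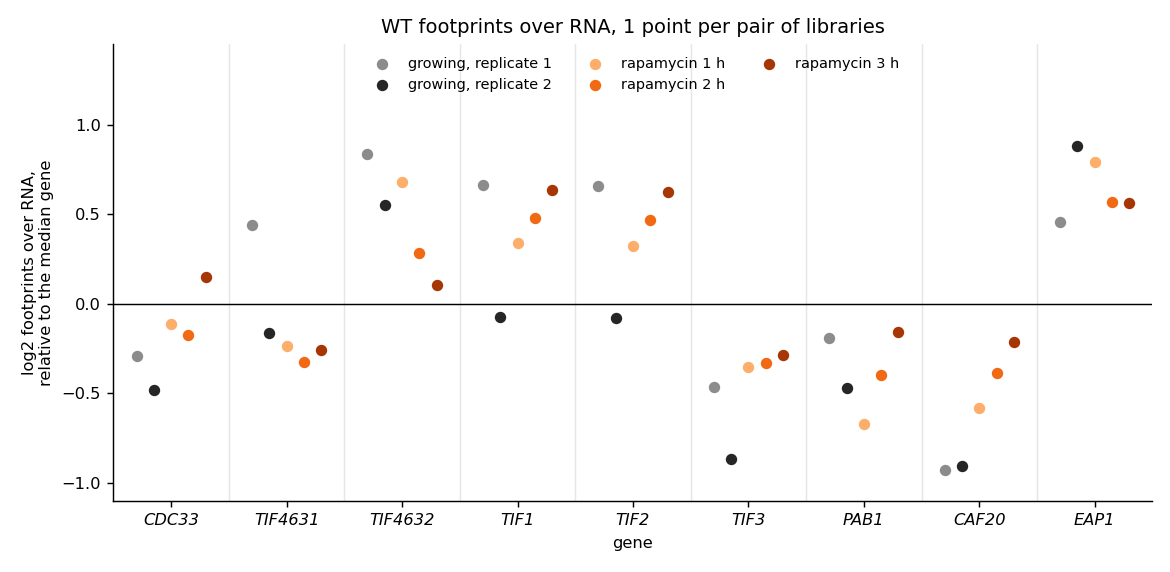
Log2 ratio of footprints to RNA in WT cells for the 9 genes, relative to the median of 5042 genes (y axis), with gray and black points for growing replicates 1 and 2 and orange to brown points for 1 h, 2 h and 3 h of rapamycin. The points of *CAF20* run from −0.93 in growing cells to −0.21 at 3 h, and the growing points of *TIF1* lie at 0.66 and −0.07.

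The other initiation factors were taken as a list of 12 genes. They comprise *SUI1*, *TIF11*, *TIF5* and *FUN12* (eIF1, eIF1A, eIF5 and eIF5B), the eIF3 genes *RPG1*, *NIP1*, *PRT1*, *TIF34*, *TIF35* and *HCR1*, and the helicase genes *DED1* and *DBP1*. Of these, 11 fell and *DBP1* rose after rapamycin in total lysates of both strains and in WT RNA at each time, beside falls of 26.9% to 36.7% of all genes. Their median log2 changes were −2.05 in *rny1*Δ *atg2*Δ, −2.08 in *rny1*Δ and −1.68 in WT at 3 h. *DBP1*, a paralog of *DED1*, had 209.6 and 190.0 CPM after rapamycin against 8.55 CPM in growing *rny1*Δ *atg2*Δ total lysates, a change of 4.55, and changed by 4.28 in *rny1*Δ and 2.07 in WT at 3 h. Like *EAP1*, it was thus a rising mRNA in a set that fell.

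Vacuolar enrichment of the 12 in *rny1*Δ, where 19.3% of all genes passed upward and 16.3% downward, passed upward for *TIF11* (1.11), *SUI1* (0.90) and *HCR1* (0.64) and downward for *DBP1* (−1.64) and *NIP1* (−0.71). In *rny1*Δ *atg2*Δ, where 4% of all genes passed upward, it passed upward for *FUN12* (1.33) and *DED1* (0.83). The difference between the strains, which passed downward for 9.63% and upward for 8.97% of all genes, did so for 6 of the 12, downward for *HCR1* (−1.21), *TIF11* (−1.07) and *SUI1* (−1.01) and upward for *DED1* (1.36), *DBP1* (1.35) and *FUN12* (1.10). The vacuole minus total difference after rapamycin in *rny1*Δ ran from −1.39 for *DBP1* to 1.15 for *HCR1*, with 4 of the 12 passing upward and 5 downward (28.6% and 27.3% of all genes). In *rny1*Δ *atg2*Δ *FUN12* (0.53) and *PRT1* (0.43) passed, where 11.9% of all genes passed upward. Footprints and ribosome association of the 12 passed at no time (0 by edgeR). For footprints, at least 8 of the 12 had an unadjusted p under 0.05 at each time, beside 1441, 937 and 959 of all 5625 genes. DESeq2 called 7, 4 and 1 of the 12 downward there. For association, 1, 0 and 2 had an unadjusted p under 0.05, beside 250, 252 and 570 of all 5936 genes, and DESeq2 called 0.

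A second list held 8 genes of proteins that bind eIF4G, Pab1, the cap or ribosomes: *SBP1*, *SCD6*, *NPL3*, *STM1*, *PBP1*, *PUB1*, *STO1* and *CBC2*. After rapamycin 4 fell in each mutant strain, *STM1*, *STO1*, *PUB1* and *SCD6*, of which *STM1*, whose protein binds ribosomes, fell most (−3.24 in *rny1*Δ *atg2*Δ and −3.13 in *rny1*Δ). *PBP1*, which encodes a Pab1-binding protein, rose in both strains (0.69 and 0.68), and *NPL3* rose in *rny1*Δ (0.56). DESeq2 called 3 downward in *rny1*Δ. Of all genes, 36.7% fell and 35.1% rose in *rny1*Δ *atg2*Δ, and 36.2% fell and 33.2% rose in *rny1*Δ. In WT RNA 4, 5 and 6 of the 8 passed downward at 1 h, 2 h and 3 h, where 29.0%, 26.9% and 29.2% of all genes did. Vacuolar enrichment passed downward for *STO1* in *rny1*Δ *atg2*Δ (−0.81), where 2.62% of all genes did. In *rny1*Δ it passed downward for *STO1* (−1.27), *NPL3* (−0.71) and *PBP1* (−0.61), where 16.3% of all genes did. The difference between strains passed downward for *SCD6* (−1.11), where 9.63% of all genes did.

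Likeness of pattern was measured as the root mean square difference of log2 CPM over the 22 libraries, after centring each gene within each experiment, among 3736 genes. It is a description of these libraries. *CDC33* was nearest to *SPE3* (0.119 log2 units, where the median gene stood at 0.983 from *CDC33*), *TIF4631* to *NCL1* (0.130), *PAB1* to *TRM13* (0.143) and *EAP1* to *SAP1* (0.155). *TIF1* was nearest to the eIF3 gene *TIF35* (0.169), *TIF4632* to *VID27* (0.170), *CAF20* to *EFB1* (0.186), *TIF2* to *GLN4* (0.188) and *TIF3* to *OLA1* (0.188). Within the 9, the closest pair was *CDC33* and *CAF20* (0.172), nearer to each other than *CAF20* was to any gene outside, followed by *TIF1* and *TIF3* (0.245). *EAP1* was the farthest member from 7 of the other 8, by 0.865 to 1.46, and had *TIF4632* as its nearest member (0.453).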

How the data were processed

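For total lysates and vacuole fractions, the authors depleted rRNA, sequenced, aligned reads with TopHat2 2.0.9 and counted them per gene with HTSeq 0.6.1, and for WT cells they aligned with STAR 2.7.0a and used molecular identifiers to discard PCR copies among the footprints. Vacuoles were isolated by flotation on Ficoll. Processing notes also name Bowtie2 2.1.0 and CASAVA 1.8. The values deposited by the authors are unscaled counts per gene, beside a codon column in the WT files. The samples were 12 total lysate and vacuole libraries in 8 groups and 10 WT libraries. Of their reads, from 62.6% to 79.5% of the total lysate and vacuole libraries lay on no gene row and were left out. Counts were fitted with edgeR 4.0.16 in R 4.3.3 (TMM, quasi-likelihood test, at least 10 counts summed over libraries), in 1 fit of the 12 libraries and 1 fit each of WT RNA, WT footprints and both together, over protein-coding genes of RefSeq R64 (6005 of the 6696 listed genes). Depth ran from 535462 to 22097523 counts per library, and intervals cover counting error only. TPM used coding length, from RefSeq or, for WT files, from the codon column, which was 10 codons shorter than RefSeq for 94.5% of genes.

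Alternatives were DESeq2 1.42.0, its size factors, other filters and gene rows, *TIF1* and *TIF2* summed, each replicate left out, 1 strain alone, all WT libraries together, a coding length correction and a replicate block. Deviations of same-numbered replicates correlated across genes by 0.26 between vacuole and total of *rny1*Δ *atg2*Δ, 0.24 in *rny1*Δ and 0.13 between footprints and RNA of growing WT cells, and the numbers from the labels were treated as pairs. The genes named are the 9 members, *ATG2* and *RNY1*, genes of both other lists that passed or were extreme, and the gene nearest in pattern to each member. Members and lists were chosen with earlier results of these data known. Scripts were tested on simulated data whose spread was smaller than that of the WT footprints. That test does not measure what the footprint and association fits could detect. Sequences are not used here.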

Additional observations from a re-analysis of the deposited data

Results flagged for a closer look

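Of the 9 genes, 5 had a vacuolar enrichment that differed between *rny1*Δ *atg2*Δ and *rny1*Δ by the test of that difference, 3 upward and 2 downward, where 8.97% and 9.63% of all genes passed. As *rny1*Δ *atg2*Δ minus *rny1*Δ on the log2 scale, it was −2.27 for *CAF20*, −1.38 for *CDC33*, 0.88 for *TIF4632*, 1.18 for *EAP1* and 1.21 for *TIF4631*. The library with 535462 counts is 1 of the 4 rapamycin-treated libraries of *rny1*Δ *atg2*Δ behind these values, and all 5 passed without it. Without the deep vacuole library of that strain, and with the length correction, only *CAF20* passed (−1.90 and −1.52). The longer genes among the 5 had positive differences and the shorter ones negative differences.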

How the results depend on the processing

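*TIF1* in the vacuole of rapamycin-treated *rny1*Δ changed direction when summed with *TIF2* (−0.040). Members passing downward between vacuole and total in *rny1*Δ *atg2*Δ numbered 3 with the replicate block and 2 with the length correction, instead of 1. Vacuolar enrichment in *rny1*Δ passed upward for 4 with the block and 1 with the length correction, instead of 2. In *rny1*Δ *atg2*Δ it passed upward for 2 and downward for 1 with the block, and downward for 1 in a fit of that strain alone, instead of 0. The strain difference of enrichment passed upward for 0 and downward for 1 with the length correction, instead of 3 and 2. Total lysates differed downward between strains for 2 with the block, instead of 1. The block changed no other count by over 1.5 times. With all 10 WT libraries in 1 fit, which pools RNA with the more variable footprints, falls in WT RNA numbered 2, 0 and 0 at 1 h, 2 h and 3 h, instead of 7 each. The rise at 3 h numbered 0 there and by DESeq2. Falls in footprints numbered 4 at 1 h and 1 at 2 h by DESeq2, 2 and 1 with no filter, and 2 at 1 h in the fit of all 10, instead of 0. The causes were not tested.

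With each replicate left out in turn, counts ranged from 2 to 3 (upward) between vacuole and total in *rny1*Δ, and from 0 to 1 upward and 0 to 2 downward in *rny1*Δ *atg2*Δ. They ranged from 2 to 3 in either direction for enrichment in *rny1*Δ and from 0 to 1 downward in *rny1*Δ *atg2*Δ. For the strain difference of enrichment they ranged from 0 to 3 upward and 1 to 2 downward, for strains in total lysates from 0 to 1 downward, and for strains in vacuoles from 2 to 3 in either direction. Ribosome association ranged from 0 to 1 downward at 1 h and 2 h, and at 3 h from 0 to 5 upward and 0 to 2 downward, with the spread taken from the growing RNA pair alone where a footprint library was left out. Leaving out a growing WT library leaves no test within RNA or footprints and moved *CAF20* RNA to −1.72 or −2.03 at 1 h.

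Growing mutants have 1 library per fraction and WT times 1 library, so that their spread was taken from other groups. The vacuole library with 535462 counts limits low mRNAs such as *CAF20* there, and the spread of growing footprints limits ribosome association. Without a vacuole replicate of *rny1*Δ, the median enrichment of all genes moved by −0.15 or −0.14 and the strain difference by 0.11.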
